A study of Mus musculus with 22 samples.

Results

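The genes described here encode the oxidative phosphorylation machinery of mouse regulatory T cells (Tregs). They were taken from the rows of the count table by symbol: Nduf genes, Sdha to Sdhd, Uqcr genes, Cox4 to Cox8 genes, Atp5 genes and the mt-Nd, mt-Co, mt-Atp and mt-Cytb genes. Of the 55011 rows, 124 matched. Pseudogene symbols (ending in -ps) took out 14 of them, and 18 had under 220 counts summed over the 22 libraries. The remaining 92 members comprised 85 nuclear genes and 7 genes of the mitochondrial genome, and all 92 passed the filter on low counts in each fit.

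Each RNA-seq library came from 1000 Foxp3-YFP+ cells, sorted in 2 rounds out of visceral fat at ZT0 (lights on). All mice were C57BL/6 males of the Foxp3.Cre-YFP strain, in which the Foxp3 promoter drives Cre in Tregs, and the groups carried the label Bmal1WT or Bmal1KO. The 8 groups were WT and KO cells on lean diet at 18 weeks of age, after 4 weeks of high fat diet at 18 weeks, after 16 weeks of high fat diet at 30 weeks (3 libraries each, the high fat feeding following 14 weeks of lean diet), and WT and KO cells recovered 9 weeks after adoptive transfer, with mice 20 weeks old (2 libraries each). The sources used here give neither the host's own cells nor the exact Bmal1 allele, and no label states that replicates are separate animals, so the p-values measure the spread between libraries, which may be technical.

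Oxidative phosphorylation couples the passage of electrons from NADH and succinate to oxygen with the pumping of protons across the inner mitochondrial membrane, and ATP synthase uses the returning protons to make ATP. Complex I accepts electrons from NADH and complex II from succinate; complex III passes them to cytochrome c, complex IV passes them on to oxygen, and complex V is ATP synthase. Complexes I, III, IV and V mix subunits made from the nuclear and the mitochondrial genome, whereas complex II is nuclear only. Tregs are known to lean on this route more than conventional effector T cells do, and BMAL1, the partner of CLOCK, drives the circadian transcription programme.

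The diet libraries held 1955940 to 3467019 counts and the transfer libraries 4814337 to 5990319. Members took 0.923 to 1.16% (nuclear) and 0.626 to 1.03% (mitochondrial) of the counts of a library. Because bulk RNA was measured, fewer cells of a type and less RNA per cell cannot be told apart. Foxp3, Cd3e and Cd4 were present in every library, with Foxp3 at 401 to 685 CPM, and Cd8a was at 0 in all diet libraries. The clock genes Nr1d1 and Nr1d2 were low and Npas2 and Cry1 high in KO libraries, while Arntl, which encodes BMAL1, had reads in KO libraries too (73.5 to 101 CPM on lean diet), so its row checks nothing. CPM here is scaled by TMM unless said otherwise.

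Complex I had 36 nuclear and 5 mitochondrial subunits among the members, plus 8 assembly factors of the Ndufaf series. Complex II had 4, complex III 8 nuclear genes and mt-Cytb, complex IV 11 nuclear genes (Ndufa4 counted here, where the protein is now placed) and mt-Co1, and complex V 17 nuclear genes. Cox7a2l, a factor that helps complexes III and IV associate, is a member but no subunit. The tissue-restricted isoforms of complex IV stayed under the minimum: Cox7a1 had 53 counts over all 22 libraries, Cox6b2 58, Cox4i2 33, Cox8c 9, Cox6a2 8, Cox8b 4 and Cox7b2 1. Ndufa4l2 had 2. Just inside the minimum were Ndufs5 with 487 counts, Ndufaf6 with 501 and Atp5l with 510, and just outside were mt-Co2 with 213 and mt-Atp6 with 205.

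Of the 6 mitochondrial rows under the minimum, 5 share nearly all of their sequence with other genes. In GENCODE M21 on GRCm38, 100% of the 38-base words of mt-Co2, 99.9% of mt-Co3 and 99.5% of mt-Atp6 also lie in other annotated genes, among them the nuclear copies Gm28661, Gm28437 and Gm10925. The same held for 98.9% of mt-Nd4l and 98.1% of mt-Nd3, which had 18 and 5 counts. mt-Co3 had 101 counts. mt-Atp8 had 23, although it shares 3.59% of its words. Reads were 38 bases long and came in pairs, and how reads that match several places were counted is not stated in the sources. The part of shared sequence in these low counts was not tested, and they are not read as levels of these genes. The mt-Atp6 row is set beside mt-Co1 below only as a row of shared sequence. Among members the share of such words was 0% in mt-Nd1, 1.04% in mt-Nd6, 1.99% in mt-Cytb, 10.5% in mt-Nd2 and 12.98% in mt-Nd5, but 58.4% in mt-Co1 and 62.6% in mt-Nd4, whose levels are therefore uncertain. mt-Nd6 lies on the opposite strand to the others, and the kit does not mark strand. Of the nuclear members, Ndufaf2 (64.7%), Atp5o (45.9%), Atp5g2 (39.5%), Ndufb6 (33.4%), Uqcrb (31.3%), Ndufa13 (31.2%) and Ndufs5 (24.7%) shared most.

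Promoter windows of the nuclear members were searched because nuclear respiratory genes are known for sites of NRF1, GABPA and YY1. RefSeq windows on GRCm38.p6, 250 bases before to 50 after the start, were matched by symbol for 72 of the 85 nuclear members. Both strands were searched, and overlapping matches were counted. The NRF1 word GCGCANGCG was in 22 of 72 (30.6%), against 16.2% of the 8787 genes tested in the diet libraries with a window and 7.0% of all 27025 genes with one. By complex it was in 8 of 32 for complex I, 2 of 7 for its assembly factors, 2 of 3 for complex II, 2 of 5 for complex III, 1 of 9 for complex IV and 7 of 15 for complex V. The YY1 word AAGATGGCG was in 8 members (11.1%, against 4.0% of tested genes) and the GABPA word CCGGAAGT in 5 (6.9%, against 10.1%). The E-box CACGTG, the word bound by BMAL1 with CLOCK, was in 6 members (8.3%, against 12.2%), and the ROR element TAGGTCA in 3 (4.2%, against 2.2%). These matches describe letters, not bound sites. Windows are shown for 4 members that were higher after transfer and hold 1 of the words, and for Ndufa4, the leading member after 16 weeks of high fat diet, which holds none of the NRF1, GABPA or YY1 words. They run 5′ to 3′ along the gene, and capitals mark matches of these 3 words. Cox6a1 is at chr5:115348909-115349208 on the minus strand (NRF1, 3 matches counting both strands), Ndufaf4 at chr4:24897833-24898132 on the plus strand (NRF1, 2 matches, 1 on each strand of a single palindrome), Uqcrh at chr4:116075021-116075320 on the minus strand (GABPA), Atp5j2 at chr5:145191492-145191791 on the minus strand (YY1) and Ndufa4 at chr6:11907401-11907700 on the minus strand.
Cox6a1: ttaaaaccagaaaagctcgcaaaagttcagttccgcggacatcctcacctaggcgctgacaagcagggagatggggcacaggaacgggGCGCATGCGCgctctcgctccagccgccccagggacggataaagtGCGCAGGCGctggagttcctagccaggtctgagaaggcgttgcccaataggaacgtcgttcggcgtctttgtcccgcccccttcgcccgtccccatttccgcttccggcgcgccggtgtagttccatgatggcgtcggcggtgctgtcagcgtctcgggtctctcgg
Ndufaf4: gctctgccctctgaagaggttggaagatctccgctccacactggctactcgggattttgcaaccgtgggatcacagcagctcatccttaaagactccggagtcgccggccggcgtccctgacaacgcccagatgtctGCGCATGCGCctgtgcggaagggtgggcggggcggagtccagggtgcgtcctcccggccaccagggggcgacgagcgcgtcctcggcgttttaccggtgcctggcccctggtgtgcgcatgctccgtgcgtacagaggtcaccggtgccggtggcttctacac
Uqcrh: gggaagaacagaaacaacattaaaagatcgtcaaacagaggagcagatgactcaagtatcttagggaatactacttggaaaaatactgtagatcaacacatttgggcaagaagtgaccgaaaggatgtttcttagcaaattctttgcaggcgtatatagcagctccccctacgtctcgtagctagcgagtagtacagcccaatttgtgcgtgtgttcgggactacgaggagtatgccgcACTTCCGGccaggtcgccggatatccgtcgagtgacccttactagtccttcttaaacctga
Atp5j2: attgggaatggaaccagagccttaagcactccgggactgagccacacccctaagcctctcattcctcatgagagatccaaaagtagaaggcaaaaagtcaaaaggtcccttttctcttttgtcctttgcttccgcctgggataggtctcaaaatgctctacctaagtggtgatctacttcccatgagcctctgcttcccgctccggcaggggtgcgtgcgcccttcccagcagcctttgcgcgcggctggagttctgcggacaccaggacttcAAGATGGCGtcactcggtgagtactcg
Ndufa4: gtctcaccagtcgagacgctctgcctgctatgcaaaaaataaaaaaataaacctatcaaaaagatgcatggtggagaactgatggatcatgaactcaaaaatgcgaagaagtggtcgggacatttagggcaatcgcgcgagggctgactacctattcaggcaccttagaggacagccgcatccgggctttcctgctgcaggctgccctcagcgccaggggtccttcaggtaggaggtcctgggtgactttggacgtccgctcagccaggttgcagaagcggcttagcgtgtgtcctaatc

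Levels of different genes were compared per length, as TPM, computed from the counts over merged exons and averaged over the 22 libraries. The 4 highest members were mitochondrial. mt-Nd1, a membrane core subunit of complex I, stood at 6381 TPM and mt-Co1, the catalytic subunit of complex IV, at 4613. mt-Cytb, the cytochrome of complex III, stood at 2702 and mt-Nd5 at 1641, while mt-Nd4 (672), mt-Nd2 (315) and mt-Nd6 (166) lay below the highest nuclear members. The 5 mitochondrial subunits of complex I spread from 166 to 6381 TPM around a median of 672. The part that shared sequence plays in these levels was not tested.

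Nuclear complexes lay close together per length. Their medians were 243 TPM for complex III (112 to 485), 218 for complex IV (80.3 to 873), 206 for complex II (32.4 to 281), 174 for complex V (3.07 to 696) and 124 for complex I (10.1 to 585). Assembly factors of complex I were lower, at 23.8 (6.45 to 103). The highest nuclear members were Cox4i1, a regulatory subunit of complex IV, at 873 TPM, Cox8a at 862, Cox6b1 at 743 and Atp5a1, the alpha subunit of ATP synthase, at 696. Ndufa2 led complex I at 585, Uqcrh, the hinge protein, led complex III at 485, and Sdha, the flavoprotein that oxidises succinate, led complex II at 281. Atp5md and Atp5pb had no entry in the annotation and so no length.

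By CPM, which is used from here on to compare a gene with itself across groups, most members varied little. The ratio of the highest to the lowest of the 8 group means had a median of 1.36 over members, and 3 of 92 exceeded 2. These were Ndufaf4 (2.14), Ndufb4 (2.07) and Ndufs5 (6.25), the last a low row that ran from 0 to 19.9 CPM over libraries with no order by group. The highest group was transfer KO for 46 members and transfer WT for 24. The lowest was lean WT for 25, 16-week WT for 25, 4-week KO for 17 and 4-week WT for 11. These counts were not made over all genes, and transfer means rest on 2 libraries against 3. They are therefore not read as particular to the members.

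**Figure D1:**
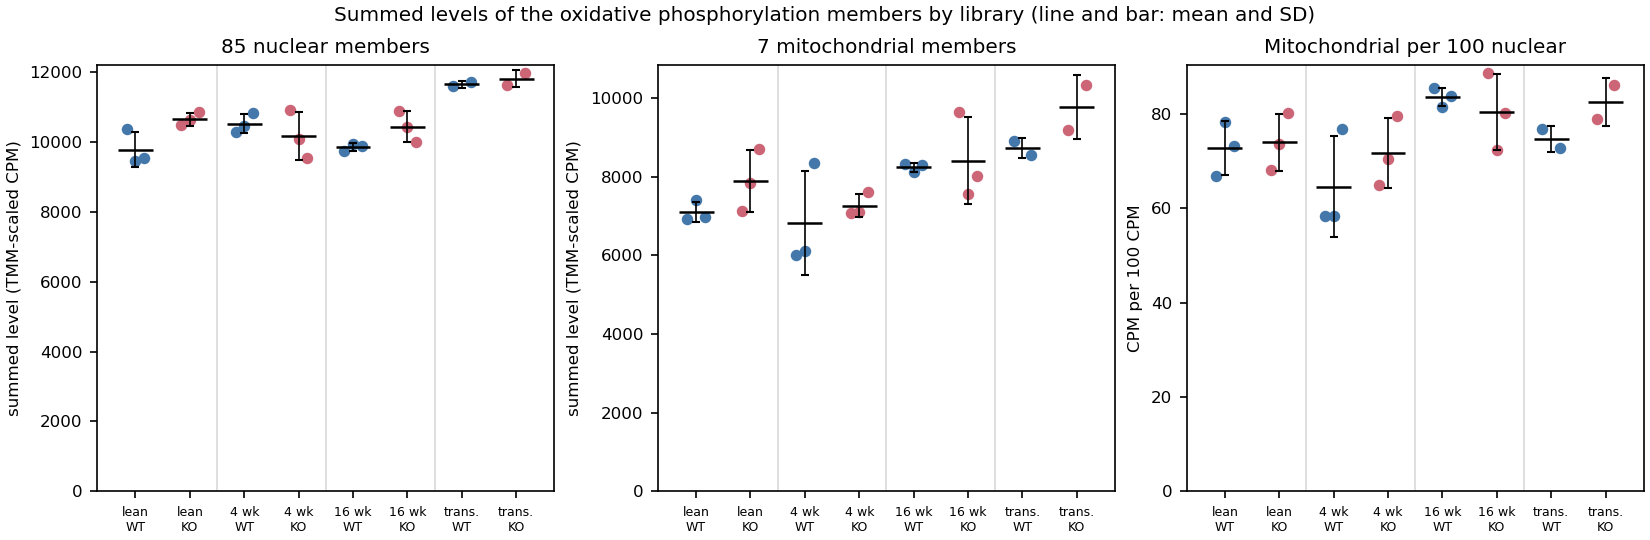
Summed TMM-scaled CPM of the 85 nuclear members and of the 7 mitochondrial members, and the mitochondrial sum per 100 of the nuclear sum, by group; each point is a library, blue for WT and red for KO, and black lines with bars are group means with their SD. All 4 transfer libraries lie above every diet library in the nuclear sum (11596 and up, against at most 10921), which is not so for the mitochondrial sum.

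Summed over members, the nuclear genes averaged 9787 ± 502 CPM (SD, n = 3) in lean WT and 10657 ± 191 (n = 3) in lean KO. After 4 weeks of high fat diet the sums were 10534 ± 284 in WT and 10182 ± 696 in KO, and after 16 weeks 9858 ± 106 and 10445 ± 440 (n = 3 each). After transfer they were 11667 ± 99.8 in WT and 11820 ± 246 in KO (n = 2 each). The lean WT libraries (9454 to 10365) lay under the lean KO libraries (10481 to 10860), and the 16-week WT libraries (9737 to 9935) under the 16-week KO libraries (10016 to 10896), while at 4 weeks the genotypes overlapped. By unscaled share of library counts the genotypes overlapped on lean diet and at 16 weeks as well. Lean WT held 0.968 to 1.05% and lean KO 1.03 to 1.06%. At 16 weeks WT held 1.01 to 1.05% and KO 1.03 to 1.16%. The transfer libraries (11596 to 11993) lay above all 18 diet libraries in TMM-scaled CPM. By unscaled share of library counts they did not: transfer libraries held 1.09 to 1.10% and 16-week libraries 1.01 to 1.16%.

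The mitochondrial sum followed another order. It was 7110 ± 260 CPM in lean WT, 7898 ± 785 in lean KO, 6826 ± 1314 in 4-week WT and 7269 ± 289 in 4-week KO. It was 8244 ± 117 in 16-week WT, 8415 ± 1105 in 16-week KO, 8727 ± 250 in transfer WT and 9769 ± 817 in transfer KO. The 4-week WT group was spread by a single library, at 8342 against 6017 and 6118 in the others. Set per 100 CPM of nuclear members, the mitochondrial sum was 73.4 ± 5.30 on lean diet (n = 6 libraries, both genotypes), 68.2 ± 9.11 at 4 weeks (n = 6), 82.0 ± 5.56 at 16 weeks (n = 6) and 78.7 ± 5.63 after transfer (n = 4). Lean libraries ran from 66.9 to 80.2 and 16-week libraries from 72.5 to 88.7, so they overlapped. As sums over members these values carry no test.

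The nuclear members were also summed by complex, without the mitochondrial subunits. Those of complex IV summed to 1722 ± 102 CPM on lean diet, 1736 ± 104 at 4 weeks and 1699 ± 62.8 at 16 weeks (n = 6 each), and to 2154 ± 96.4 after transfer (n = 4). No transfer library (2076 to 2272) fell within the diet range, whose top was 1846. The nuclear members of complex I went from 2785 ± 151, 2775 ± 136 and 2772 ± 107 in the 3 diets to 3182 ± 56.6 after transfer, again apart (3123 to 3257 against at most 2968). Complex II also lay apart, at 821 to 893 after transfer against at most 809, from diet means of 751, 765 and 756. The nuclear members of complexes III and V did not: those of complex III held 1248 to 1324 after transfer against up to 1300 in a 4-week library, and those of complex V 3830 to 4080 against up to 3951.

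**Figure D2:**
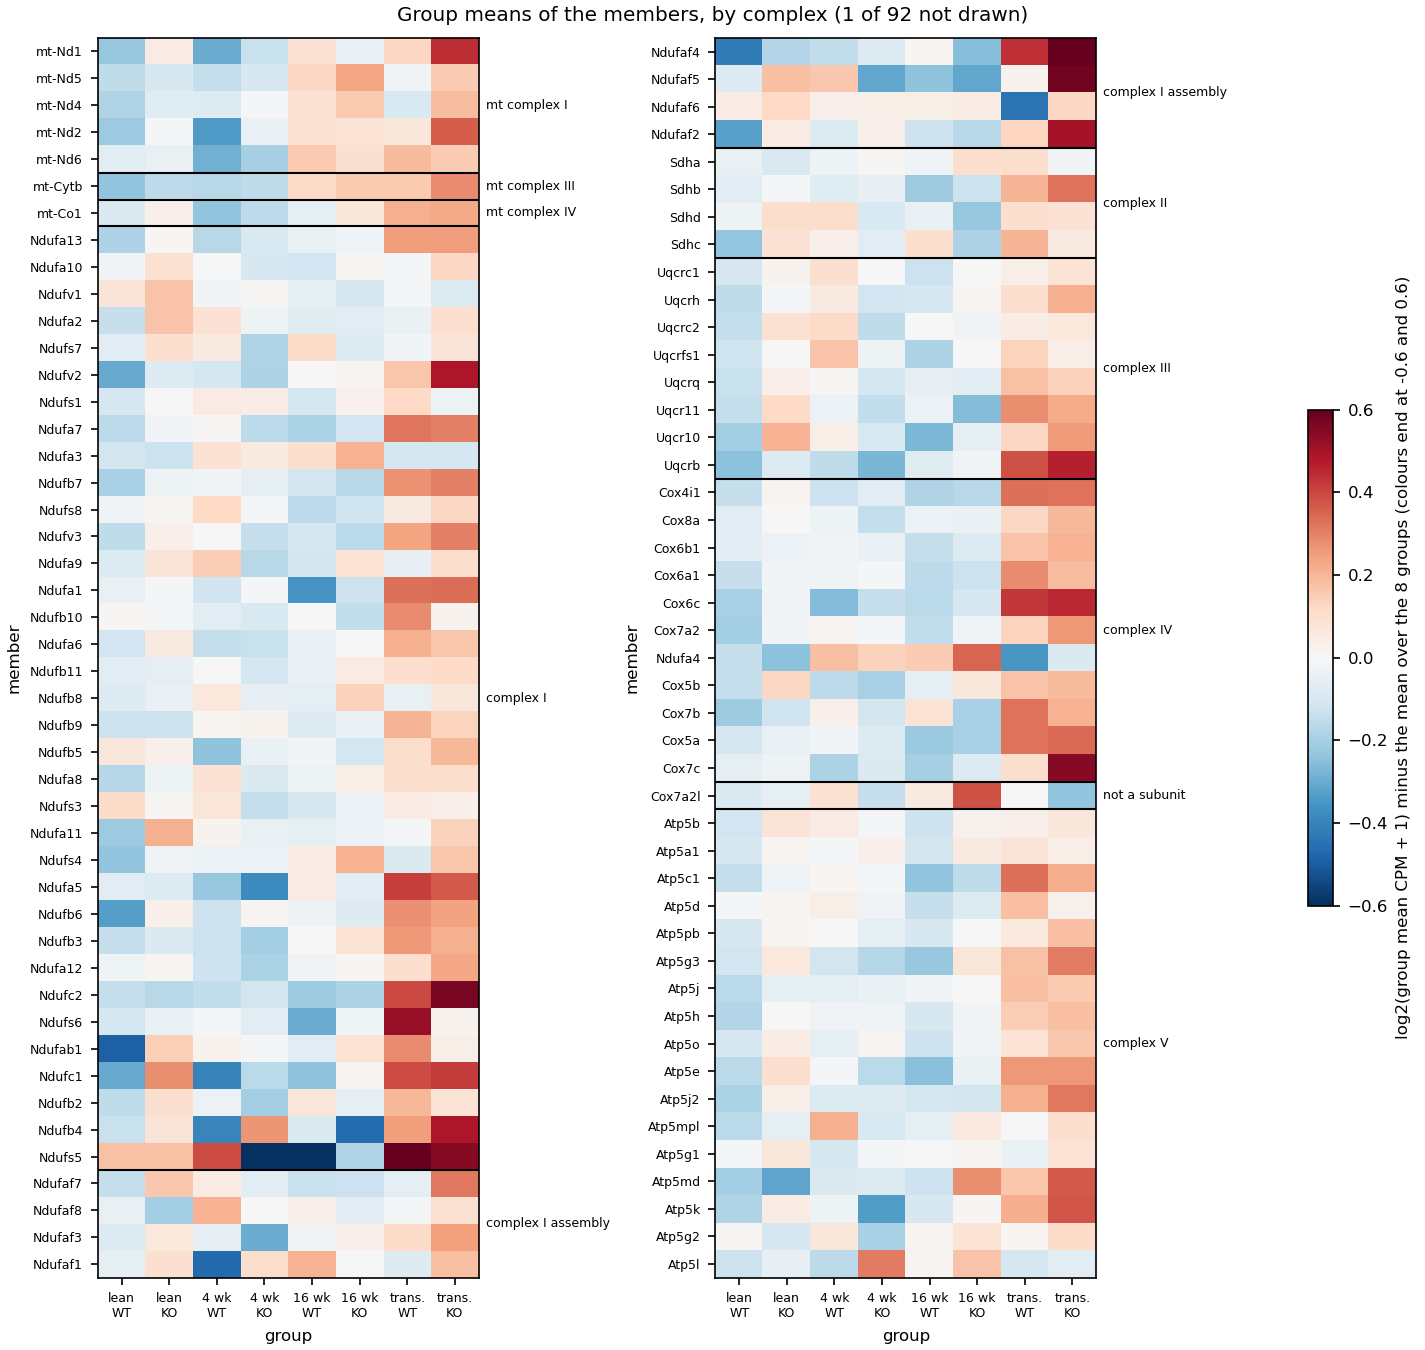
Heat map of the members (rows, 1 of the 92 not drawn, ordered by complex and genome) over the 8 groups (columns), coloured by log2(group mean CPM + 1) minus the row's mean over groups, with colours ending at -0.6 and 0.6. Over all 92 members transfer KO is the highest group for 46 and transfer WT for 24, a count that was not made over all genes.

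The study compared Bmal1 KO with WT cells within each setting, and no member was called in any of the 5 genotype comparisons. A call is a Benjamini-Hochberg adjusted p under 0.05 over all genes tested, from the edgeR quasi-likelihood test. Members with an unadjusted p under 0.05 numbered 5 on lean diet, 3 at 4 weeks, 1 at 16 weeks, 1 for the mean of the 3 diets and 2 after transfer, and DESeq2 also called 0 in each. The share of all genes at an unadjusted p under 0.05 is not given here or below. Such counts, of members or of listed genes, are therefore not read as a result about them. The background was small as well: 0.0427% of all genes tested were called on lean diet, 0.0684% at 4 weeks, 0.0427% at 16 weeks, 0.18% for the mean of the diets and 0.171% after transfer. For the mean of the 3 diets, the 95% interval of the log2 difference had a median half-width of 0.17 and lay within ±0.5 for 83 of 92 members and within ±1 for 91. Within lean diet it lay within ±0.5 for 59 of 92 and after transfer for 49.

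On lean diet 79 of 92 members had a positive KO minus WT difference, with a median of 0.12 on the log2 scale, against 49.6% positive and a median of -0.00 over all genes tested. By complex the medians ran from 0.10 (complexes II and IV) and 0.11 (complexes I and V) to 0.17 (complex III) and 0.21 (complex I assembly), and the 7 mitochondrial members were all positive at a median of 0.11. In 18 members all 3 KO libraries were above all 3 WT libraries and in 1 all were below. Over all genes tested these shares were 6.9% and 6.33%. The member with the smallest p was Ndufa11, a membrane subunit of complex I, at 71.3, 78.1 and 90.8 CPM in the KO libraries and 53.3, 54.4 and 69.7 in the WT libraries. Its log2 difference was 0.44 ± 0.15 (SE; adjusted p = 0.496). Ndufa2, an accessory subunit, had 141, 144 and 147 CPM in KO and 112, 115 and 121 in WT, a log2 difference of 0.32 ± 0.11 (adjusted p = 0.496). Ndufab1, the mitochondrial acyl carrier protein, had 0.66 ± 0.25 (adjusted p = 0.555). Genes of the handling and stress list (Fos, Jun, Egr1 and others of that kind) also differed in level on lean diet: their summed CPM was 15261 to 17164 in KO and 8046 to 13020 in WT libraries, with 0 of 10 called. Their part in the lean values was not tested.

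At 4 weeks 37 of 92 members had a positive difference (median -0.04), with all 8 nuclear complex III members negative and all 7 mitochondrial members positive. Here the smallest p belonged to Ndufaf1, an assembly factor, at 0.63 ± 0.28, Ndufa9 at -0.31 ± 0.14 and Uqcrc2, a core protein of complex III, at -0.26 ± 0.12 (adjusted p = 0.999 for each). At 16 weeks 66 of 92 were positive (median 0.06). Over all genes tested the median was 0.0012 at 4 weeks and 0.0014 at 16 weeks. The share of all genes with a positive difference is not given beside these counts. Atp5g3, a copy of the c subunit of ATP synthase, had a log2 difference of 0.30 ± 0.15 (adjusted p = 0.553) and Atp5md 0.41 ± 0.21 (adjusted p = 0.591). Over the 3 diets 25 of 92 members kept their sign, and 0 of 92 had KO and WT ranges apart in the same direction in all 3. The same shares over all genes tested were not computed, so neither count is read as a trait of the members.

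Averaged over the diets, Ndufc1 had the smallest p, with a log2 difference of 0.37 ± 0.17 (adjusted p = 0.627), followed by the alpha and beta subunits of ATP synthase, Atp5a1 at 0.11 ± 0.05 (adjusted p = 0.676) and Atp5b at 0.10 ± 0.05 (adjusted p = 0.707). After transfer 58 of 92 were positive (median 0.03, against 0.005 over all genes tested). mt-Nd1 had 2803 and 3633 CPM in KO and 2492 and 2661 in WT, a log2 difference of 0.31 ± 0.11 (adjusted p = 0.710). mt-Nd4 had 398 and 408 in KO and 323 and 342 in WT, a difference of 0.26 ± 0.11 (adjusted p = 0.737). Ndufs6 had -0.53 ± 0.25 (adjusted p = 0.786).

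**Figure D3:**
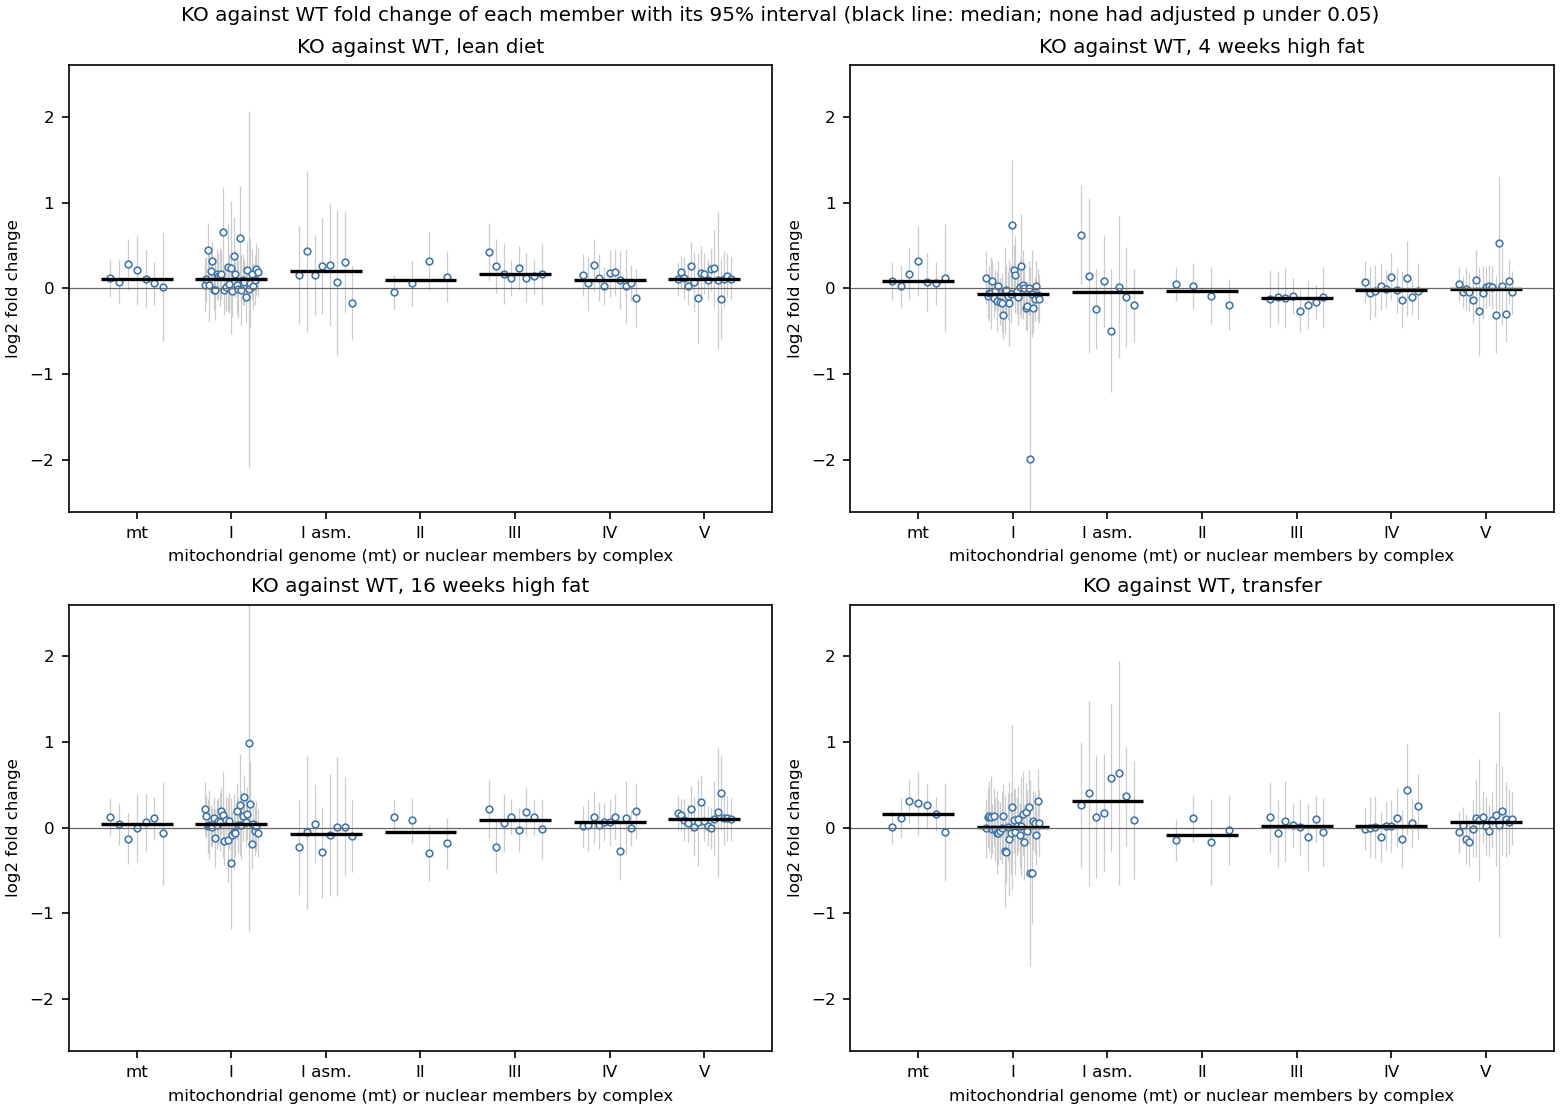
Log2 difference KO minus WT of each member (points) by complex and genome, with 95% intervals and black lines at the medians, for the 3 diets and for transfer; Cox7a2l, which belongs to no complex, is not drawn, and the interval of Ndufs5 can run past the axis. Points lie mostly above 0 on lean diet (79 of 92 members) and mostly below it at 4 weeks (37 of 92 above).

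The difference between genotype effects was tested as an interaction. For 4 weeks against lean diet, 0 members and 0% of genes were called, with 7 members at an unadjusted p under 0.05; 15 of 92 interaction values were positive, and the median was -0.16, against -0.00 over all genes. Uqcrc2 had -0.49 ± 0.17, Ndufa2 -0.42 ± 0.15 and Ndufa9 -0.47 ± 0.19 (adjusted p = 0.9997 for each). This contrast subtracts the genotype effect of the lean libraries, in which most members had a positive difference. For 16 weeks against lean diet 0% of genes were called, and the smallest p belonged to Sdhc, a membrane anchor of complex II, at -0.62 ± 0.22 (adjusted p = 0.447), Uqcr11 at -0.49 ± 0.21 (adjusted p = 0.529) and mt-Nd1 at -0.41 ± 0.20 (adjusted p = 0.6003). For 16 against 4 weeks 0% were called, with Ndufa9 at 0.50 ± 0.19 (adjusted p = 0.679) and Ndufb4 at -1.15 ± 0.52 (adjusted p = 0.712). Members at an unadjusted p under 0.05 numbered 2 for 16 weeks against lean diet and 5 for 16 against 4 weeks, and DESeq2 called 0 members in all 3.

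High fat diet of 4 weeks was compared with lean diet at the same age. No member and no gene was called in WT, in KO or in the mean of both genotypes (0% each), with 3, 2 and 3 members at an unadjusted p under 0.05 and 0 called by DESeq2. The nuclear members had a median log2 difference of 0.11 in WT and -0.08 in KO. Both values also rest on the lean groups, between which no member was called, and the part of the lean levels was not tested. In WT, Atp5mpl had 0.37 ± 0.15 (adjusted p = 0.849), Ndufb5 -0.32 ± 0.14 (adjusted p = 0.868) and Ndufab1 0.53 ± 0.25 (adjusted p = 0.886). In KO, Ndufa4 had 0.39 ± 0.16 (adjusted p = 0.636), Cox5b -0.32 ± 0.15 (adjusted p = 0.668) and Ndufs7 -0.28 ± 0.14 (adjusted p = 0.715). In the mean of genotypes Ndufa4 had 0.35 ± 0.11 (adjusted p = 0.366), mt-Co1 -0.18 ± 0.08 (adjusted p = 0.541) and Ndufa3 0.18 ± 0.08 (adjusted p = 0.574).

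After 16 weeks of high fat diet 4 of 92 members were higher than on lean diet in the mean of genotypes and 0 were lower. They were Ndufa4 and Ndufa3 from the nucleus and mt-Cytb and mt-Nd5 from the mitochondrial genome. Over all genes 6.63% were called, 2.92% as higher, so 4 of 92 is close to the background. In 2 members all 16-week libraries were above all lean libraries, against 1.09% of all genes. These mice were 30 weeks old against 18, so diet and age cannot be told apart.

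mt-Cytb, the mitochondrial subunit of complex III, had 1302, 1285 and 1281 CPM in 16-week WT and 1437, 1244 and 1303 in 16-week KO. The 6 lean libraries ran from 961 through a median of 1035 to 1163, so the ranges were apart. The log2 difference was 0.33 ± 0.08 (SE; adjusted p = 0.0220). mt-Nd5, a proton-pumping subunit of complex I, ran from 1149 through 1264 to 1518 at 16 weeks and from 962 through 1055 to 1154 on lean diet, meeting at the edge. It was higher by 0.30 ± 0.08 on the log2 scale (adjusted p = 0.0324).

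Ndufa4, a subunit of complex IV at chr6:11900292-11907497 (GRCm38), had 128, 93.7 and 134 CPM in 16-week WT and 155, 134 and 120 in 16-week KO. Lean libraries held 85.2, 100.1 and 106 in WT and 90.4, 89.3 and 89.5 in KO. A single 16-week WT library lay within the lean range. The log2 difference was 0.44 ± 0.11 (adjusted p = 0.0207). Ndufa3, an accessory subunit of complex I, had 104 to 118 CPM at 16 weeks and 82.2 to 96.9 on lean diet, with no overlap, and a log2 difference of 0.27 ± 0.08 (adjusted p = 0.0468).

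The mitochondrial members as a set were on the higher side at 16 weeks: all 7 differences were positive, with a median of 0.20 on the log2 scale, whereas the 85 nuclear members had a median of -0.01 and 38 positive. Split by genotype, WT had 0 members called (0.0855% of genes; 5 members at an unadjusted p under 0.05, and 0 with DESeq2), led by mt-Cytb at 0.35 ± 0.12 (adjusted p = 0.336), mt-Nd5 at 0.28 ± 0.12 (adjusted p = 0.511) and mt-Nd1 at 0.32 ± 0.14 (adjusted p = 0.538). KO had 1 called of 5.95% of genes, Ndufa4 at 0.60 ± 0.16 (adjusted p = 0.0294), followed by Ndufa3 at 0.34 ± 0.11 (adjusted p = 0.0879) and Atp5md at 0.62 ± 0.22 (adjusted p = 0.1001). The median of the mitochondrial members was 0.28 in WT and 0.15 in KO.

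These 4 calls rest on few libraries. The Ndufa3 call was lost in each of the 12 fits that left out a library, and in 14 of its 18 alternatives, with adjusted p from 0.0285 to 0.363 over them. Without replicate 1 of lean WT, or without replicate 1 of 16-week KO, 0 members were called; 1 was called without replicate 1 of lean KO or of 16-week WT, and 2 without replicate 3 of lean WT or of 16-week WT. Replicate 1 of 16-week KO also had the highest mitochondrial sum of the diet libraries, 9660 CPM. It carried 116 CPM of stromal markers and 52.7 of adipocyte markers, against at most 11.2 and 11.9 in any other library. Its cell cycle genes summed to 1422 CPM, against at most 1187 in any other library. Of the 8 adipocyte markers 5 (Cfd, Lep, Retn, Ucp1 and Cidea) were at 0 in all 16-week KO libraries. Adipoq was at 0 in replicate 1 too, so its 52.7 CPM came from Fabp4, Plin1 or both. The other 16-week KO libraries held 10.01 and 10.9 CPM of adipocyte markers against 2.11 to 4.74 in lean KO. Endothelial markers summed to 121 to 203 CPM in 16-week KO, 52.0 to 159 in 16-week WT and 42.3 to 78.2 over the lean libraries. The Ndufa4 call in KO was lost without any single library except replicate 3 of 16-week KO. The handling and stress list moved as well, with 6 of 10 genes lower at 16 weeks and a summed level of 6229 to 8957 CPM against 8046 to 17164 on lean diet. Of 5 T cell markers 2 were higher, Cd3d and Cd3e, and of 10 Treg identity genes 4 were lower, Il2ra, Pparg, Klrg1 and Il1rl1. The part of these in the result was not tested.

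Against 4 weeks, 16 weeks of high fat diet gave 0 members called in the mean of genotypes (2.12% of genes; 8 members at an unadjusted p under 0.05), and 2 with DESeq2. mt-Nd5 had 0.30 ± 0.08 (adjusted p = 0.0644), mt-Cytb 0.30 ± 0.08 (adjusted p = 0.0726) and mt-Co1 0.21 ± 0.08 (adjusted p = 0.191). Without replicate 3 of 4-week WT, the library with the high mitochondrial sum, 3 members were called. In WT 0 members and 0% of genes were called: mt-Nd1 had 0.39 ± 0.14 (adjusted p = 0.531) and Ndufaf1 0.73 ± 0.27 (adjusted p = 0.545). In KO 0 members were called of 1.64% of genes: Cox7a2l had 0.52 ± 0.18 (adjusted p = 0.166), mt-Nd5 0.33 ± 0.12 (adjusted p = 0.193) and mt-Cytb 0.31 ± 0.12 (adjusted p = 0.228). At an unadjusted p under 0.05 there were 9 members in WT and 5 in KO, with 0 from DESeq2 in both. A test of any difference among the 6 diet groups called 0 members and 2.86% of genes. Its smallest values were mt-Cytb (adjusted p = 0.175), mt-Nd5 (adjusted p = 0.181) and Ndufa4 (adjusted p = 0.188), the 3 members at an unadjusted p under 0.05, and DESeq2 called 0.

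**Figure D4:**
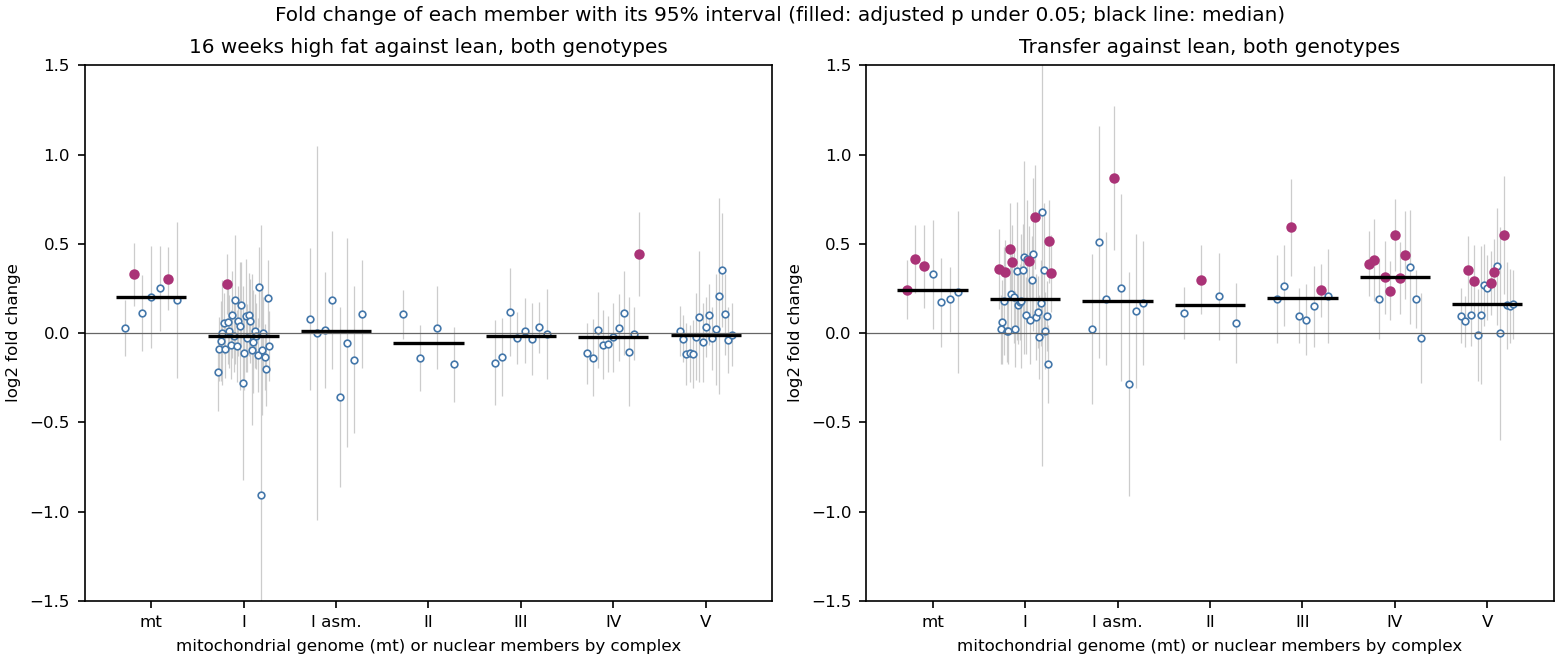
Log2 difference of each member (points) from lean diet, mean of genotypes, by complex and genome with 95% intervals, after 16 weeks of high fat diet and after transfer; filled points are called, Cox7a2l is not drawn, the black lines are medians, and the interval of Ndufs5 runs past the axis. The 7 mitochondrial members lie above 0 in both, and the nuclear members lie around 0 at 16 weeks and mostly above it after transfer.

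Cells recovered after transfer were compared with resident cells on lean diet. In the mean of genotypes 27 of 92 members were higher and 0 were lower, while 16.2% of all genes were called, 7.35% as higher. Differences were positive for 85 of 92 members with a median of 0.21 on the log2 scale, against a median of -0.02 over all genes. In 23 members all transfer libraries were above all lean libraries and in 0 all were below, against 6.32% and 5.42% of genes. Against all 18 diet libraries, 13 members lay above in every transfer library and 0 below, where 3.53% and 2.87% of genes did so. Transfer, age (20 against 18 weeks), depth and any batch of preparation cannot be told apart.

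Complex IV had the largest share, with 7 of 11 nuclear members higher and a median of 0.31 on the log2 scale. Cox6c, an accessory subunit at chr15:35925886-35938246 (GRCm38), had 196 and 177 CPM in transfer WT and 184 and 198 in transfer KO. The 6 lean libraries ran from 115 through 125 to 150, well apart. It was higher by 0.55 ± 0.10 on the log2 scale (SE; adjusted p = 0.000465). Cox4i1, at chr8:120668222-120674207, had 634 and 690 CPM in WT and 615 and 703 in KO after transfer, against 419 to 576 on lean diet with a median of 509, a log2 difference of 0.39 ± 0.09 (adjusted p = 0.00369). Cox5a (0.41), Cox7b (0.44), Cox7a2 (0.31), Cox6a1 (0.31) and Cox6b1 (0.24) made up the rest, with adjusted p from 0.0129 to 0.0435. Cox6a1, whose window above holds the NRF1 word, had 212, 228, 200 and 212 CPM in the 4 transfer libraries against 158 to 188 on lean diet. The other 4 members were not called. Cox8a had a log2 difference of 0.19 ± 0.08 (adjusted p = 0.0967), Cox7c 0.37 ± 0.15 (adjusted p = 0.108) and Cox5b 0.19 ± 0.11 (adjusted p = 0.248). Ndufa4 was at 80.6 and 86.7 CPM in transfer WT and 103 and 97.8 in transfer KO, within the lean range of 85.2 to 106 apart from a transfer WT library below it.

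In complex I, 8 of 36 nuclear subunits were higher (median 0.19). Ndufc2, in the membrane arm, had 43.7 and 51.6 CPM in transfer WT and 53.6 and 54.2 in transfer KO, against 26.2 to 36.8 on lean diet with a median of 33.0. It was higher by 0.65 ± 0.14 on the log2 scale (adjusted p = 0.00261). Ndufv2, an iron-sulfur subunit of the NADH-oxidising tip, had 131, 128, 140 and 183 CPM after transfer against 71.7 to 117 on lean diet, a log2 difference of 0.51 ± 0.11 (adjusted p = 0.00273). Ndufb7 and Ndufa7 were both higher by 0.40 ± 0.10 (adjusted p = 0.00613 and 0.00656) and Ndufa13 by 0.34 ± 0.09 (adjusted p = 0.00912), all with ranges apart. Ndufa5, Ndufa1 and Ndufv3 were also called. Ndufa10, among the most abundant complex I members, was not called, at 134 to 162 CPM against 129 to 163. Ndufa3, called at 16 weeks of high fat diet, had 88.5 to 94.8 CPM after transfer, inside the lean range of 82.2 to 96.9.

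Of the 8 assembly factors 1 was called. Ndufaf4, which is needed early in complex I assembly and whose window holds the NRF1 palindrome, had 21.7 and 32.2 CPM in transfer WT and 28.3 and 33.3 in transfer KO, against 12.7 to 19.0 on lean diet. Its log2 difference of 0.87 ± 0.19 (adjusted p = 0.00341) was the greatest among the members. The abundant factors overlapped with lean diet: Ndufaf7 had 33.6 to 55.6 CPM after transfer against 25.9 to 49.8, Ndufaf8 25.0 to 39.6 against 22.8 to 33.7 and Ndufaf3 24.5 to 42.4 against 19.9 to 33.0.

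Complex II had 1 of 4 called, Sdhb, its iron-sulfur subunit, with 245 to 282 CPM after transfer against 192 to 230 on lean diet and a log2 difference of 0.30 ± 0.09 (adjusted p = 0.0318). Sdha had 434 to 500 CPM against 396 to 462 and Sdhd 74.0 to 83.4 against 63.9 to 93.5, both overlapping. Complex III had 2 of 8 called. Uqcrb, which helps form the quinone site, had 85.2 and 70.7 CPM in WT and 69.7 and 95.7 in KO after transfer, against 44.8 to 61.3 on lean diet, a difference of 0.59 ± 0.13 (adjusted p = 0.00311), on a row that shares words with other genes. Uqcrh was higher by 0.24 ± 0.07 (adjusted p = 0.0257), with 247 to 268 CPM against 202 to 248. The core proteins Uqcrc1 (392 to 438 CPM against 333 to 410) and Uqcrc2 (162 to 192 against 150 to 189) overlapped.

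Complex V had 5 of 17 called, none of them the alpha or beta subunit. Atp5c1, the gamma subunit of the rotor shaft, had 451 and 419 CPM in WT and 358 and 445 in KO after transfer, against 287 to 356 on lean diet, a log2 difference of 0.35 ± 0.09 (adjusted p = 0.0109). Atp5j2, in the membrane part, was higher by 0.34 ± 0.09 (adjusted p = 0.0102), Atp5md by 0.55 ± 0.16, Atp5j by 0.28 ± 0.09 and Atp5e by 0.29 ± 0.10 (adjusted p from 0.0208 to 0.0429). Atp5b had 887 to 988 CPM against 785 to 952 and Atp5a1 810 to 955 against 738 to 855, so both overlapped.

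Among the mitochondrial members 3 of 7 were called and all 7 were positive (median 0.24). mt-Cytb had 1256, 1398, 1344 and 1558 CPM in the transfer libraries against 961 to 1163 on lean diet, a log2 difference of 0.41 ± 0.09 (adjusted p = 0.00330). mt-Nd1 had 2661, 2492, 2803 and 3633 against 1932 to 2941, overlapping, with 0.37 ± 0.11 (adjusted p = 0.0245). mt-Co1 had 3009 to 3379 against 2472 to 2896, with 0.24 ± 0.08 (adjusted p = 0.0411) on a row that shares words with nuclear copies. mt-Nd5 had 1113 to 1295 CPM against 962 to 1154, mt-Nd4 323 to 408 against 278 to 397, mt-Nd2 130 to 184 against 97.2 to 140.2 and mt-Nd6 33.4 to 41.3 against 25.2 to 40.2. The rows of the copied genes also held more in the deeper transfer libraries: mt-Atp6 had 5.34 to 7.89 CPM (by library total) there against 0.473 to 3.12 in the diet libraries, and the nuclear copy Gm10925 4.01 to 8.22 against 0 to 2.64. In the diet libraries mt-Atp6 rested on 1 to 9 counts and Gm10925 on 0 to 9. The part of reads from shared sequence in the mt-Co1 difference was not tested.

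**Figure D5:**
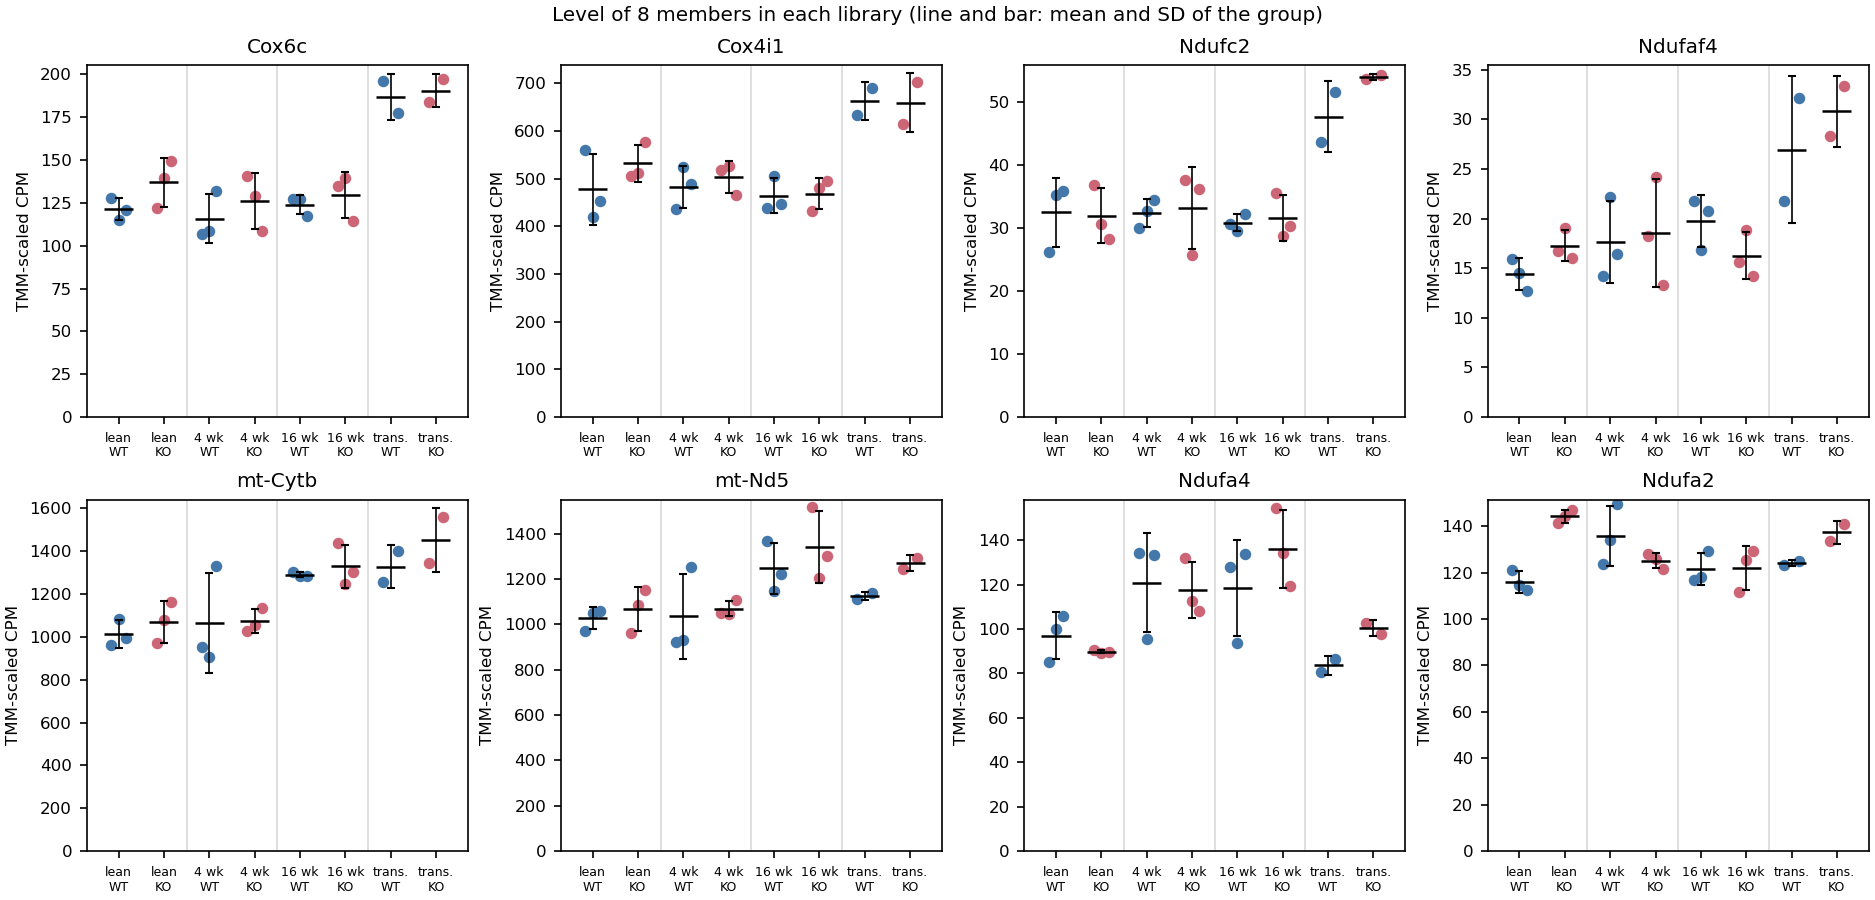
TMM-scaled CPM of 8 members by group; each point is a library, blue for WT and red for KO, and lines with bars are group means with their SD. Cox6c, Cox4i1 and Ndufc2 are apart from all diet libraries after transfer, and mt-Cytb is above lean diet at 16 weeks and after transfer. Ndufa4 is above lean diet at 16 weeks except in a WT library within the lean range, and overlaps lean diet after transfer.

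Split by genotype, 10 members were higher in transfer WT than in lean WT and 0 lower (10.5% of genes called, 4.63% as higher). They were Cox6c (0.62 ± 0.14, adjusted p = 0.00591), Cox4i1 (0.47), Atp5c1 (0.47), Ndufa13 (0.44), Ndufa7 (0.48), Ndufb7 (0.47), Uqcrb (0.63), Ndufaf4 (0.90), Cox7b (0.54) and Atp5j2 (0.40), all log2 differences. In KO 1 member was called of 3.35% of genes, Ndufc2 at 0.75 ± 0.20 (adjusted p = 0.0387), followed by Ndufv2 at 0.56 ± 0.16 (adjusted p = 0.0506) and Cox6c at 0.48 ± 0.14 (adjusted p = 0.0590). Whether the genotypes differ in this was not tested. The median over members was 0.27 in WT and 0.18 in KO. The nuclear sum was 9454 to 10365 CPM in lean WT and 10481 to 10860 in lean KO, and its part in these medians was not tested.

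The count of 27 fell to 13 without replicate 2 of transfer KO, to 16 without replicate 2 of transfer WT and to 17 without replicate 3 of lean WT. Cox4i1, Cox6c, mt-Cytb, Ndufa13, Ndufa7, Ndufaf4, Ndufb7, Ndufc2, Ndufv2 and Uqcrb were called in all 16 alternative fits. The call was lost in 12 of the 16 for Cox6b1, in 11 for Atp5e and in 9 each for Atp5j, mt-Co1 and Sdhb. It was lost in 8 each for Cox7a2, Ndufv3 and Uqcrh, and in 7 each for Cox6a1 and Ndufa1. For the remaining called members it was lost in 1 to 5. In WT the count of 10 fell to 1 without replicate 2 of lean WT or replicate 2 of transfer WT, and to 2 without replicate 3 of lean WT or replicate 1 of transfer WT, and the KO call was lost without replicate 2 or 3 of lean KO or replicate 2 of transfer KO.

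Other lists moved with the transfer libraries. Of the Treg identity genes 7 of 10 were higher, and their summed CPM was 9648 to 10712 after transfer against 5728 to 7570 on lean diet. Of the T cell markers 1 of 5 was higher: Trac, the T cell receptor alpha constant gene, by 3.63 ± 0.12 on the log2 scale (adjusted p = 4.62e-16), and their sum was 6821 to 10698 against 2877 to 3305. The cytotoxic genes Nkg7 and Prf1 fell, as did 6 of 14 cell cycle genes. Of the handling and stress list 5 of 10 were higher, with sums of 17188 to 21399 against 8046 to 17164. The part of these in the members' differences was not tested.

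Lists of related genes were also read. Over all genes 16.2% were called after transfer, 7.35% as higher, so the ribosome and assembly factor counts below are not above the background. After transfer, of 77 mitochondrial ribosome genes tested 4 were higher (Mrps25, Mrpl36, Mrpl33 and Mrps12, by 0.44 to 0.71 on the log2 scale) and 0 lower, with a median of 0.12. Of 39 assembly factors outside the rule 2 were higher: Tmem70, for complex V, by 0.50 ± 0.16 and Sdhaf4, for complex II, by 0.60 ± 0.20. On a list of 17 electron carriers and electron entry enzymes, which also holds Atpif1, Etfb, a subunit of the electron transfer flavoprotein, was higher by 0.64 ± 0.15. The tricarboxylic acid cycle and pyruvate dehydrogenase list split, with 3 of 21 higher (Dld by 0.51, Mpc2 by 0.50, Sucla2 by 0.38) and 3 lower (Idh2 by -0.92, Pcx by -2.58, Dlst by -0.33). Of 22 regulators of mitochondrial transcription and biogenesis 0 were higher and 1 lower. This was Polrmt, the mitochondrial RNA polymerase, at 48.0 ± 9.26 CPM (SD, n = 4) after transfer and 75.7 ± 8.88 (n = 6) on lean diet, a log2 difference of -0.66 ± 0.15 (SE; adjusted p = 0.00367).

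After 16 weeks of high fat diet, 1 of the 22 regulators was higher (Gabpb1, which encodes the partner of GABPA, by 0.50 ± 0.14) and 1 lower (Myc, by -0.45 ± 0.12). Over all genes 6.63% were called in this comparison, 2.92% as higher. Of the 17 genes on the electron carrier and entry enzyme list 2 were lower. Atpif1, the inhibitor of ATP synthase, is on that list although it is neither, and had a log2 difference of -0.49 ± 0.11 (adjusted p = 0.00929). Gpd2, the mitochondrial glycerol-3-phosphate dehydrogenase, had -0.50 ± 0.15 (adjusted p = 0.0408). By edgeR, 0 of the 39 other assembly factors, 0 of the 21 cycle enzymes and 0 of the 77 ribosome genes were called, with 4, 1 and 5 at an unadjusted p under 0.05 and 0, 0 and 1 called by DESeq2. In KO against WT, mean of the 3 diets, edgeR and DESeq2 called 0 genes of these 5 lists, where edgeR called 0.18% of all genes. At an unadjusted p under 0.05 there were 3 ribosome genes and 0 in each of the others.

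Among members with a window, the NRF1 word was in 4 of the 21 called after transfer (19.0%) and in 18 of the 51 not called (35.3%). For the YY1 word the counts were 2 of 21 (9.5%) and 6 of 51 (11.8%), and for the GABPA word 1 of 21 (4.8%) and 4 of 51 (7.8%).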

How the data were processed

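The authors deposited a table of raw read counts per gene symbol for 22 bulk RNA-seq libraries. STAR 2.7.3a, featureCounts and the mm10 build are named in the submitters' processing notes. Per the labels' protocols, cDNA was primed with anchored oligo(dT), amplified by PCR without molecular identifiers, tagmented and sequenced in pairs of 38 bases; the kit does not mark strand.

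Here counts were tested with edgeR 4.0.16 (quasi-likelihood F test, TMM scaling, genes kept by a minimum count of 10, Benjamini-Hochberg adjustment over all genes tested, threshold 0.05). The 18 diet libraries were fitted together (11698 genes), the 4 transfer libraries alone (11715 genes), and all 22 libraries for transfer against lean diet (12523 genes). CPM and TPM were computed from the counts; 96.4% of symbols were in GENCODE M21, which gave exon lengths. DESeq2 1.42.0 and other settings were alternatives, described in the closing section. Scripts were tested on simulated counts. Library totals differed, so low rows are less precise in the diet libraries.

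Libraries were grouped by their titles. Members and gene lists were chosen with earlier results of these data known. Named members were all those of the mitochondrial genome, the 3 of highest mean CPM in each nuclear complex, the tissue-restricted isoforms, up to 10 called members per comparison by smallest p, and the 3 of smallest p where fewer than 3 were called; the other members called after transfer were named after their values were seen. Same-numbered KO and WT libraries did not deviate together (correlations of -0.127 to 0.165 over 7073 genes, 1 of 11 pairs over 0.1), so numbers were not used to pair them. Mitochondrial rRNA rows were not analysed here. The values of 1 member are not reported here, although it is included in counts, sums and medians.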

Additional observations from a re-analysis of the deposited data

Results flagged for a closer look

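Some rows next to the members carried reads that no comparison above used. Ndufb1-ps had 2747 counts over the 22 libraries, more than many members, although its symbol took it out of the rule. It held 29.3 to 44.7 CPM (by library total) in the diet libraries and 45.2 to 50.2 in the transfer libraries. Ndufs5-ps had 469 counts and Ndufa12-ps 350.

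Of the mitochondrial rows under the minimum, mt-Co2 had 213 counts, mt-Atp6 205 and mt-Co3 101. The 22 mitochondrial tRNA rows together had 1891 counts. Each of these totals is above the 3 counts that a count of 0 allows. No group held enough libraries for a check of single outlying libraries, and no interaction of genotype with diet was called for a member.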

How the results depend on the processing

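No called member reversed under any alternative. Differences in the nuclear and mitochondrial sums moved by less than the spread between libraries, but 5 small ones changed sign when a library was left out. The mitochondrial sum for KO against WT at 16 weeks went from 0.0216 (log2) to -0.082 without replicate 1 of 16-week KO. The other 4 were nuclear sums: KO against WT after transfer went from 0.0187 to -0.0025 without replicate 2 of transfer KO, 4 weeks against lean from 0.0196 to -0.0063 without replicate 1 of 4-week KO, and 16 weeks against lean from -0.009 to 0.012 without replicate 1 of lean WT and to 0.006 without replicate 3 of 16-week KO. Member counts that moved by over 1.5 times were as follows, and the cause was not tested. Without a filter on low counts they were 1 (16 against 4 weeks, WT), 3 (same, mean of genotypes), 3 (any difference among diet groups), 6 (transfer against lean, WT) and 2 (same, KO). DESeq2 gave 2 for 16 against 4 weeks (mean of genotypes) and 4 for transfer against lean in KO. With all 22 libraries in the fit, 16 against 4 weeks (mean of genotypes) gave 1. With the libraries of the comparison alone, transfer against lean gave 3 in WT and 0 in KO. With a replicate block, transfer against lean in WT gave 5. The block called 0 members in every comparison of KO with WT. The count for transfer against lean, mean of genotypes, moved by less than 1.5 times: the block gave 20 and the other settings 19 to 27.

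Leaving out a library gave 0 to 1 member at 16 weeks in KO, 0 to 3 for the mean of genotypes, 0 to 3 for 16 against 4 weeks (3 without replicate 3 of 4-week WT, 1 without replicate 2 of 16-week WT) and 0 to 3 for any difference among diet groups. For transfer against lean it gave 1 to 8 in WT, 0 to 1 in KO and 13 to 27 for the mean. Counts over all genes, the backgrounds above, depended far more on the filter and the tool. KO against WT called 5 genes on lean diet, 135 without the filter and 24 with DESeq2. It called 8, 75 and 8 at 4 weeks (5 with the replicate block), 5, 428 and 47 at 16 weeks, 21, 273 and 38 for the mean of diets, and 20, 102 and 61 after transfer (40 with the block, 37 with all 22 libraries). The interactions called 0, 22 and 0 (4 weeks), 0, 258 and 24 (16 weeks) and 0, 211 and 1 (16 against 4 weeks). High fat of 4 weeks against lean called 0, 40 and 0 in WT, 0, 112 and 22 in KO and 0, 161 and 39 for the mean. At 16 weeks against lean these were 10, 178 and 68 in WT and 696, 1085 and 968 in KO. For 16 against 4 weeks they were 0, 96 and 24 in WT, 192, 638 and 346 in KO and 248, 536 and 391 for the mean, for any difference among diet groups 335, 1343 and 761, and for transfer against lean in KO 419, 698 and 640. Depth, 1955940 counts in the shallowest library, limits rows such as Ndufs5 and Atp5l.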
